A study of Homo sapiens with 12 samples.

Results

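The enzymes and the chaperone that modify collagen inside and outside the cell are described here as 10 genes, out of 36433 gene symbols in the table. They are the collagen galactosyltransferases COLGALT1 and COLGALT2, the lysyl hydroxylases PLOD1, PLOD2 and PLOD3, the prolyl 4-hydroxylase catalytic subunits P4HA1 and P4HA2, the chaperone SERPINH1, and the lysyl oxidases LOX and LOXL2. The group was chosen by function, around COLGALT1 and PLOD2, which had been selected on their falls with the miR-126 mimic and with the miR-150 mimic. Values of COLGALT1 in comparisons with miR-126, and of PLOD2 in comparisons with miR-150, are therefore given as description, with no test. Their other tests against the control use the control libraries on which they were chosen. Those p-values are not independent of the choice. The other 8 genes were listed with results of the same libraries known. All 10 were found by symbol, each as 1 Ensembl gene, and 9 had at least 1 TPM (transcript abundance per length, scaled to the same total in every library) in at least 3 libraries and were tested among 13750 genes.

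HMEC-1 cells, an immortalised endothelial line from small vessels of human skin, were profiled by RNA sequencing in 4 groups of 3 libraries, numbered 2 to 4. The cells had received 50 nM of a synthetic mimic of human miR-126, of miR-143 or of miR-150, or of a non-targeting scrambled RNA, all by lipid transfection with RNAiMAX, and were collected at 48 h. A mimic raises the amount of 1 microRNA, which guides repression of transcripts carrying matching sites. The study's title places the 3 microRNAs in pathological growth of retinal vessels. Separate cultures are not mentioned in the labels, and the p-values then cover only the variation among these libraries, which may be technical.

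A collagen chain is modified in the endoplasmic reticulum before it folds. Prolyl 4-hydroxylases add the hydroxyl groups that hold the triple helix together, lysyl hydroxylases modify lysines, and some of the resulting hydroxylysines receive galactose and then glucose. SERPINH1 (HSP47) binds the folded helix on its way out, and lysyl oxidases then oxidise lysines and hydroxylysines so that the molecules cross-link. Endothelial cells lay down type IV collagen in the basement membrane of vessels, a collagen rich in hydroxylysine and its sugars.

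Mature sequences of miR-126 and miR-143 are shown because their seed, bases 2 to 8 in capitals, is the stretch that pairs with target transcripts. They are given 5' to 3' from RefSeq (GRCh38.p14), and both arms are listed because the labels do not name the arm of the mimic. The miR-126 hairpin is on chromosome 9 and the miR-143 hairpin on chromosome 5, both on the plus strand.
hsa-miR-126-3p: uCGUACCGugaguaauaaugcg
hsa-miR-126-5p: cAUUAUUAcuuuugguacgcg
hsa-miR-143-3p: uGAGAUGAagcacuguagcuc
hsa-miR-143-5p: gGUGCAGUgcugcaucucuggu

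The 4 seeds are all different. Their reverse complements were searched on the transcript strand of the longest 3' UTR of each gene (GENCODE 29). The miR-126-3p site, CGGTACG, was in none of the 10 genes and in 0.298% of 12429 tested genes with a UTR. The miR-126-5p site, TAATAAT, was once in PLOD2 and 4 times in LOX, with 2 of the LOX matches overlapping, and in 19.9% of all genes. The miR-143-3p site, TCATCTC, was at 2 places in COLGALT2 and in none of the other members, against 14.4% of all genes. The miR-143-5p site, ACTGCAC, was in no member and in 18.2% of all genes. COLGALT1, which had the lowest level relative to the control with miR-126, held a match to neither miR-126 arm in its 3' UTR. Matches describe letters only, in 1 annotated UTR per gene. Sites for miR-150 were not searched, because its mature sequence was not in the sources used here.

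Endothelial markers were present throughout. All 10 (PECAM1, CDH5, VWF and others) had at least 1 TPM in every library, and their summed level was 1074 to 1672 TPM with miR-126, 1042 to 1958 with miR-143, 929 to 1635 with miR-150 and 1300 to 2040 in controls. Of 12 fibroblast and pericyte markers, 8 were high enough to be tested, with summed levels over all 12 of 55.3 to 116 TPM, 36.4 to 80.1 TPM, 28.5 to 80.5 TPM and 47.3 to 101 TPM in the same order of groups. Their highest sum in each group was in replicate 3, and PDGFRA, DCN, LUM and KCNJ8 stayed under 0.81 TPM in every library. RGS5 (7.44 to 12.8 TPM), TAGLN (5.77 to 61.1), CSPG4 (2.98 to 8.19), ACTA2 (2.38 to 28.6) and NOTCH3 (1.57 to 9.47) were over 1 TPM in every library. PDGFRB (0.605 to 3.29 TPM), FAP (0.653 to 10.9) and THY1 (0.941 to 4.30) lay on both sides of 1 TPM. No gene of either list passed the limma test against the control with all 12 libraries and no block. At an unadjusted p under 0.05, 1 endothelial marker was higher with each mimic and 2 were lower with miR-150. At that cut 1 and 2 fibroblast and pericyte markers were lower with miR-143 and miR-150. Of all genes 13.7%, 8.36% and 5.55% were higher with miR-126, miR-143 and miR-150, and 5.7%, 8.39% and 11.8% lower. With the replicate number as a block, 1 endothelial marker passed higher for miR-126, and 2 fibroblast and pericyte markers passed higher and 1 lower. Of all genes 11.8% passed higher and 5.11% lower in that fit. Without the 2 libraries described next, 1 endothelial marker passed higher with miR-126, where 8.89% of all genes did. The part of these levels in the results was not tested. In the libraries miR-143 replicate 4 and miR-150 replicate 4, genes with long transcripts were low, with Spearman correlations across 13649 genes of -0.40 and -0.55 between transcript length and the deviation of each gene from its average, against -0.0084 to 0.29 in the other 10. COLGALT1 (3516 bases), PLOD2 (3390), LOXL2 (3324) and LOX (3215) had transcripts longer than the median gene's 2127 bases. So did PLOD1 (2789), P4HA1 (2725) and P4HA2 (2269). The miR-143 and miR-150 values of members are therefore also given without these 2 libraries where a call changes.

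In control cells the family spanned a wide range of levels. SERPINH1 was highest at 324 ± 3.35 TPM (SD, n = 3 here and below), followed by PLOD2 at 307 ± 29 TPM, LOXL2 at 197 ± 18.7, COLGALT1 at 191 ± 15.8, PLOD1 at 182 ± 3.96, PLOD3 at 100.3 ± 9.72, P4HA2 at 96.8 ± 19.8, LOX at 58.8 ± 13.2 and P4HA1 at 36.2 ± 1.60. Library ranges of SERPINH1 and PLOD2 overlapped, as did those of LOXL2, COLGALT1 and PLOD1, and those of PLOD3 and P4HA2. COLGALT2, the second galactosyltransferase, was at or near 0, with at most 0.16 TPM in any library, so COLGALT1 was the measured galactosyltransferase of these cells. In miR-126 cells COLGALT1 was ninth of the 10, and PLOD2 sixth. SERPINH1 had the highest mean in all 4 groups.

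Against the control, the members past the threshold with all 12 libraries were lower with the mimic, and none was higher. The threshold was an adjusted p of 0.05 in limma across all tested genes, with Benjamini-Hochberg adjustment. COLGALT1 in the miR-126 comparisons and PLOD2 in the miR-150 comparisons enter no count. With miR-126, 0 of 8 members passed higher and 1 passed lower (PLOD2), where 3.37% of all tested genes passed higher and 1.73% lower. With miR-143, 0 of 9 passed higher and 1 passed lower (COLGALT1), where 1.84% and 1.48% of all genes did. With miR-150, 0 of 8 passed higher and 3 passed lower (COLGALT1, PLOD1 and SERPINH1), where 1.08% and 2.23% of all genes did. The members were listed with these results known, so nothing is read from the counts beyond the genes they name.

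At an unadjusted p under 0.05, 1 of 8 members was higher and 2 lower with miR-126, where 13.7% of all genes were higher and 5.7% lower. With miR-143, 1 of 9 was higher and 2 lower at that cut, where 8.36% and 8.39% of all genes were, and with miR-150 0 of 8 were higher and 5 lower, where 5.55% and 11.8% were. With the replicate number as a block, 1 member passed higher (P4HA1) and 2 lower (PLOD1 and PLOD2) for miR-126, where 11.8% and 5.11% of all genes passed. Without the 2 libraries low in long transcripts P4HA1 passed higher with each mimic. In that setting 1 member passed higher and 2 lower with miR-126 (8.89% and 4.56% of all genes), 1 and 2 with miR-143 (2.89% and 2.3%), and 1 and 3 with miR-150 (2.08% and 2.24%). The median log2 fold change of the same members was -0.0051 with miR-126, -0.08 with miR-143 and -0.50 with miR-150, beside medians of 0.10, -0.04 and -0.11 over all tested genes. The 10 endothelial markers had medians of -0.16, -0.03 and -0.50 in the same order. The 8 tested fibroblast and pericyte markers had medians of 0.24, -0.25 and -0.41. The part of a fall shared with these markers was not tested. The 3 comparisons share the control libraries. Fold changes are on the log2(TPM + 1) scale, and changes with miR-150 stand against that general shift of -0.11. A fall in summed TPM cannot separate fewer cells using a gene from less RNA per cell.

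**Figure D1:**
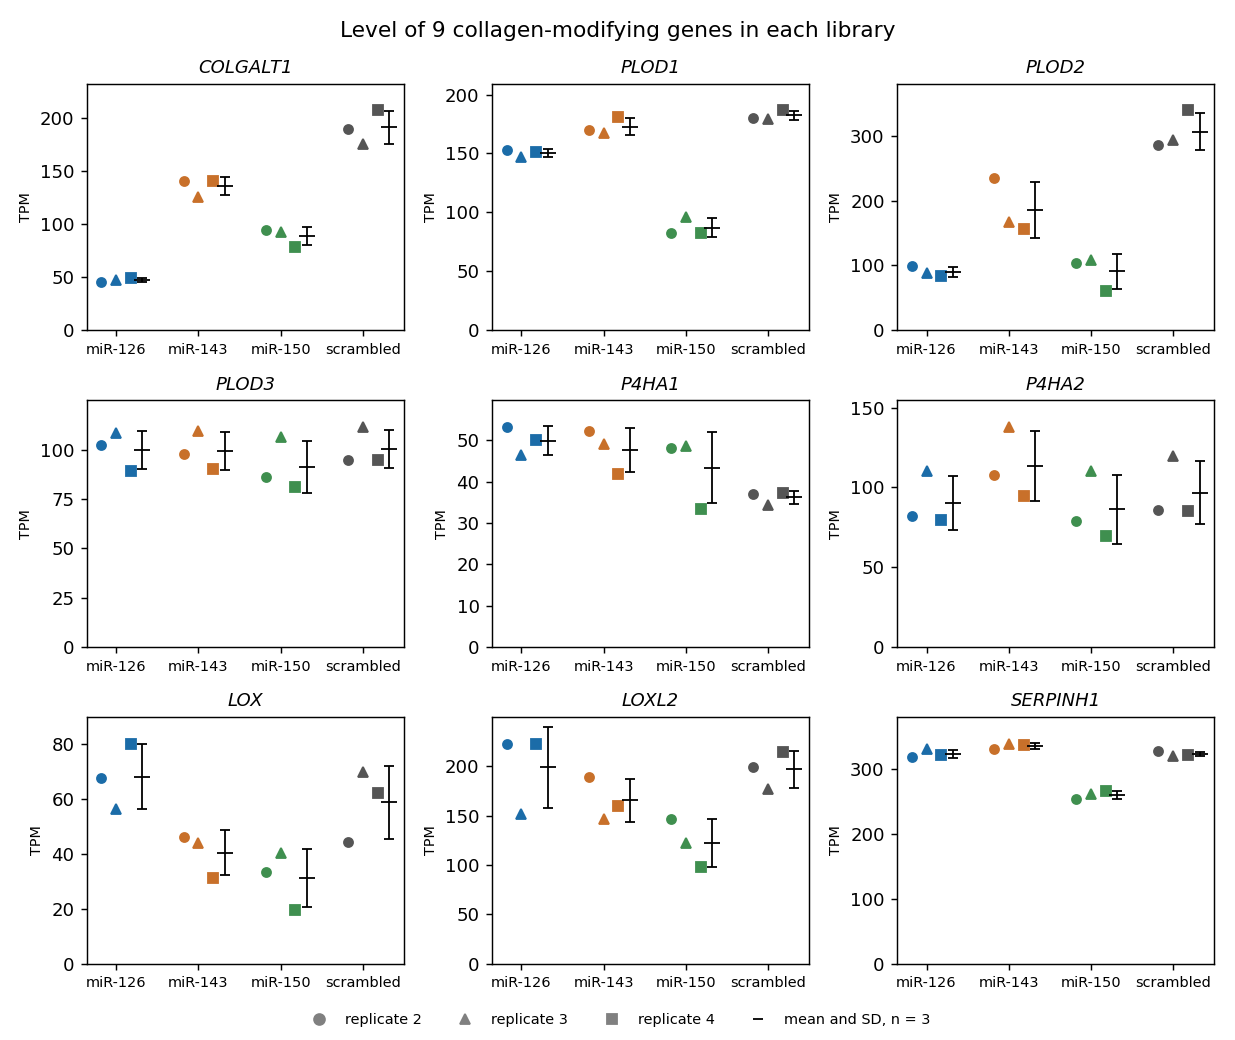
Level in TPM of the 9 tested members (1 panel each) in every library, by group; marker shape gives the replicate number, and bars the mean and SD of 3 libraries. COLGALT1 is lower than in controls with all 3 mimics, PLOD2 is at 83.3 to 98.6 TPM with miR-126 against 286 to 339.9 TPM in controls, PLOD1 and SERPINH1 stand apart with miR-150, and PLOD3 shows no separation.

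COLGALT1 (chromosome 19, 17555594 to 17583162, plus strand, GRCh38) transfers galactose to hydroxylysine. It had 45.8, 47.1 and 49.5 TPM with miR-126, 141, 126 and 141 TPM with miR-143, 94.7, 92.9 and 78.7 TPM with miR-150, and 190.0, 176 and 207 TPM with scrambled RNA (replicates 2, 3 and 4). The 4 groups do not overlap, in the order miR-126, miR-150, miR-143, control. With miR-126 the mean was 24.8% of the control's, a log2 difference of -1.98 (SE 0.11) that is given without a test because it put the gene on the list. With miR-150 COLGALT1 fell by 1.10 on the log2 scale (SE 0.11, 95% interval -1.34 to -0.86, adjusted p = 0.00035, limma), and that call held with each library left out in turn. With miR-143 it fell by 0.49 (interval -0.73 to -0.25, adjusted p = 0.0334). That smaller fall did not pass after median centring of each library (-0.44, adjusted p = 0.09), without the variance trend (0.0621), or with 7 of the 12 libraries left out singly. The miR-150 and miR-143 tests use the control libraries on which COLGALT1 was chosen, so their p-values are not independent of that choice.

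Most COLGALT1 signal belonged to COLGALT1-201, which codes for the full protein. This transcript had 34.96 ± 1.30 TPM with miR-126, 120.0 ± 3.99 with miR-143, 75.0 ± 8.52 with miR-150 and 173 ± 15.5 in controls, so that 20.3% of the control level was left with miR-126. COLGALT1-202, annotated as a retained intron, holds 9.35% of the gene's TPM and was named after its values were seen. It had 8.89 ± 0.76 TPM with miR-126 against 11.8 ± 1.73 TPM in controls, or 75.1% of the control level. The 2 transcripts were thus lower by different amounts, although kallisto splits reads between transcripts that share exons and each value is an estimate.

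PLOD2 (chromosome 3, 146069440 to 146163653, minus strand) encodes the lysyl hydroxylase of the telopeptides, the chain ends whose hydroxylysines shape collagen cross-links. It had 98.6, 88.1 and 83.3 TPM with miR-126, 235, 166 and 156 TPM with miR-143, 104, 109 and 60.2 TPM with miR-150, and 286, 294 and 339.9 TPM with scrambled RNA. Every mimic library was below every control library, and the miR-126 and miR-150 ranges overlapped. With miR-126 PLOD2 fell by 1.76 on the log2 scale (SE 0.22, interval -2.23 to -1.28, adjusted p = 0.00135), in all 7 alternative settings and with each library left out. The miR-143 difference was -0.74 (interval -1.22 to -0.26) and did not pass, with an adjusted p of 0.0989. It passed after median centring (adjusted p = 0.0179), after quantile normalization (0.0301) and without the 2 libraries low in long transcripts (-0.63, adjusted p = 0.0432). It also passed in limma with the replicate number as a block (adjusted p = 0.034). With miR-150 the mean was 29.7% of the control's, a log2 difference of -1.78 (SE 0.22), untested because it put the gene on the list. The miR-126 and miR-143 tests use the same control libraries, so their p-values are not independent of that choice.

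An alternative exon separates the long and short forms of PLOD2. The long form, known as LH2b, is the one linked to telopeptide hydroxylation. The exon is printed because annotated transcripts with and without it differed in how much they fell. It is exon 14 of PLOD2-201, 63 bases or 21 codons at chr3:146077862-146077924 on the minus strand (GRCh38), shown in capitals between the last 10 bases of exon 13 and the first 10 of exon 15 as they join in the spliced transcript (sequence from GENCODE 29).
PLOD2 exon 14: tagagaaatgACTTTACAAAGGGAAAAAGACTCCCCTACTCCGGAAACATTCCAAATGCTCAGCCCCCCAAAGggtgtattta

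Of the 10 PLOD2 transcripts in the table, 3 hold this exon, 1 skips it and 6 do not cover it. Transcripts with the exon summed to 52.0, 46.0 and 53.7 TPM with miR-126, 199.7, 128 and 141 TPM with miR-143, 78.7, 72.1 and 48.5 TPM with miR-150, and 257, 218 and 289.6 TPM in controls. The transcript without it, PLOD2-202, had 34.5, 29.8 and 24.1 TPM with miR-126, 22.1, 34.0 and 13.5 TPM with miR-143, 20.0, 30.8 and 11.4 TPM with miR-150, and 26.3, 44.1 and 30.6 TPM in controls. The form with the exon was below all controls in every mimic library, while the form without it overlapped the controls in each mimic group.

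The exon-containing share of PLOD2, counted over transcripts that cover the exon or its junction, was accordingly lower with miR-126. It was 63.3% ± 4.95 with miR-126, 86.8% ± 6.76 with miR-143, 76.9% ± 5.94 with miR-150 and 88.1% ± 4.27 in controls. The miR-126 shares (60.1% to 69.0%) and the miR-150 shares (70.1% to 80.9%) lay below all control shares (83.2% to 90.7%), and the miR-143 shares overlapped them. Replicate 3 had the lowest share in the miR-143, miR-150 and control groups. These shares rest on the authors' assignment of reads to transcripts and are given with no test.

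**Figure D2:**
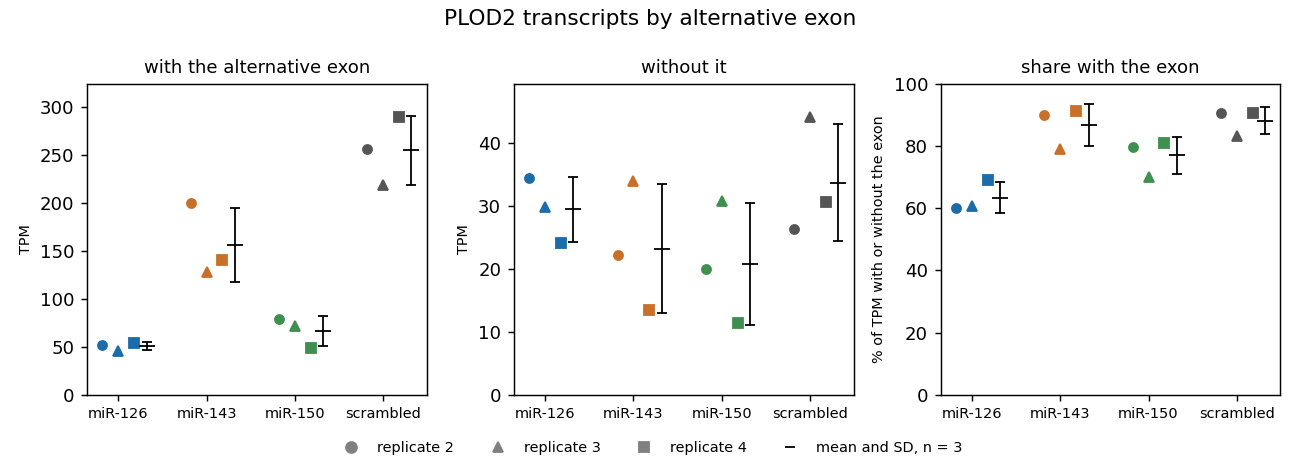
PLOD2 transcripts by group: summed TPM of transcripts with the alternative exon, TPM of the transcript without it, and the share with the exon in percent, for each library with mean and SD of 3. The first panel shows 46.0 to 53.7 TPM with miR-126 against 218 to 289.6 TPM in controls, the second shows overlapping groups, and the share is lowest with miR-126.

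Among single transcripts, PLOD2-201 held the largest part of the fall. It had 21.1, 7.1 and 16.7 TPM with miR-126, 133, 119 and 135 TPM with miR-143, 46.5, 52.9 and 24.8 TPM with miR-150, and 223, 165 and 209 TPM in controls, which left 7.52% of the control mean with miR-126 and 20.8% with miR-150. PLOD2-209, which also holds the exon but ends in a shorter 3' UTR (536 bases against 1277), had 30.9, 38.9 and 37.0 TPM with miR-126 and 33.3, 53.7 and 80.7 TPM in controls. The single TAATAAT match in PLOD2, at chr3:146070383-146070389 on the minus strand, lies in the 3' UTR of PLOD2-201, PLOD2-202 and PLOD2-209 alike. It is shown in capitals within its surrounding bases, 5' to 3' on the transcript strand.
PLOD2 match to the miR-126-5p seed: aaataacaagacTAATAATattttctt

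PLOD1 (chromosome 1, 11934205 to 11975538, plus strand) hydroxylates lysines within the helix. It had 153, 147 and 151 TPM with miR-126, 169.9, 167 and 181 TPM with miR-143, 82.7, 96.3 and 82.2 TPM with miR-150, and 180.4, 179.6 and 187 TPM with scrambled RNA. The miR-150 libraries stand far below all others. PLOD1 fell by 1.06 on the log2 scale with miR-150 (SE 0.091, interval -1.26 to -0.86, adjusted p = 0.000293), and the call held in all 7 alternative settings and with each library left out. With miR-126 the 3 libraries were also below all controls, but the difference of -0.28 (interval -0.48 to -0.08) did not pass, with an adjusted p of 0.109. It passed with the replicate number as a block (adjusted p = 0.0426) and without the 2 libraries low in long transcripts (0.0401). With miR-143 the difference was -0.08 (interval -0.28 to 0.12, adjusted p = 0.724). PLOD1-201, its main transcript, had 79.6 ± 11.03 TPM with miR-150 against 174 ± 5.35 TPM in controls.

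PLOD3 (chromosome 7, 101205977 to 101218420, minus strand) both hydroxylates lysine and adds the glucose that completes the disaccharide. It had 102, 108 and 89.1 TPM with miR-126, 97.9, 109 and 90.3 TPM with miR-143, 86.0, 106 and 81.3 TPM with miR-150, and 94.5, 112 and 94.9 TPM with scrambled RNA, with all groups overlapping. No difference from the control passed. The 95% intervals of the log2 difference ran from -0.30 to 0.28 with miR-126, from -0.31 to 0.28 with miR-143 and from -0.43 to 0.15 with miR-150. PLOD3 shares 429 exonic bases with ZNHIT1 on the opposite strand (85.7 TPM on average), and whether reads were assigned by strand is not given in the sources used here, so its level is uncertain.

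The make-up of the lysyl hydroxylase family differed between groups. PLOD2 made up 26.4% ± 1.26 of the summed PLOD1, PLOD2 and PLOD3 TPM with miR-126, 40.3% ± 5.66 with miR-143, 33.3% ± 5.82 with miR-150 and 52.0% ± 2.37 in controls. The share of PLOD3 was 29.3% ± 2.04, 21.8% ± 2.67, 34.0% ± 2.43 and 17.1% ± 1.91 in the same order. The summed level of the 3 genes was 340.2 ± 15.3 TPM with miR-126, 458 ± 40.2 with miR-143, 269 ± 43.9 with miR-150 and 589 ± 30.5 in controls. In control cells PLOD2 was thus the most abundant of the 3, with miR-126 PLOD1 was, and with miR-150 the 3 had overlapping levels. These shares follow from the PLOD1 and PLOD2 values above and are no separate test.

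P4HA1 (chromosome 10, 73007217 to 73096974, minus strand) and P4HA2 (chromosome 5, 132191838 to 132295315, minus strand) are the catalytic subunits that hydroxylate proline. P4HA1 had 53.2, 46.3 and 50.0 TPM with miR-126, 52.2, 49.0 and 41.8 TPM with miR-143, 48.0, 48.5 and 33.4 TPM with miR-150, and 37.0, 34.4 and 37.3 TPM with scrambled RNA. All miR-126 and miR-143 libraries were above all controls, and with miR-150 the replicate 4 library, 1 of the 2 low in long transcripts, was below them. The log2 differences were 0.45 (interval 0.11 to 0.78), 0.38 (0.05 to 0.72) and 0.23 (-0.10 to 0.57) with miR-126, miR-143 and miR-150, and none passed, with adjusted p-values of 0.121, 0.230 and 0.473 in limma. Without the 2 libraries low in long transcripts all 3 passed, with adjusted p-values of 0.00972, 0.0253 and 0.0487 and log2 differences of 0.45, 0.47 and 0.41. The miR-143 difference also passed after median centring (0.0337) and quantile normalization (0.0421). In the replicate block fit the miR-126 difference passed (adjusted p = 0.0394).

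P4HA2 had 81.8, 110.0 and 79.3 TPM with miR-126, 108, 138 and 94.8 TPM with miR-143, 78.8, 110.4 and 69.2 TPM with miR-150, and 85.7, 119.6 and 85.0 TPM with scrambled RNA. Replicate 3 was the highest library in all 4 groups, as it was for PLOD3, and all groups overlapped. No difference from the control passed, with log2 differences of -0.09, 0.23 and -0.17 with miR-126, miR-143 and miR-150. The transcript P4HA2-207 had 9.35 ± 1.25 TPM with miR-126 against 16.5 ± 3.48 TPM in controls, while P4HA2-203, the most abundant, had 46.3 ± 13.7 against 52.1 ± 6.48 TPM. P4HA2 shares 548 exonic bases with its antisense gene P4HA2-AS1, so its reads may include some from the other strand. P4HA1 made up 35.9% ± 5.45 of the 2 subunits' TPM with miR-126, 29.8% ± 3.30 with miR-143, 33.6% ± 3.79 with miR-150 and 27.7% ± 4.62 in controls.

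SERPINH1 (chromosome 11, 75562056 to 75572783, plus strand), the collagen chaperone, had 319, 331 and 321 TPM with miR-126, 331, 339.8 and 337 TPM with miR-143, 254, 262 and 267 TPM with miR-150, and 328, 321 and 323 TPM with scrambled RNA. The miR-150 libraries were below all others, and the libraries of a group lay close together. It fell by 0.31 with miR-150 (SE 0.073, interval -0.47 to -0.15, adjusted p = 0.0400), a level of 80.5% of the control's. That call was lost after median centring (-0.18, adjusted p = 0.580), after quantile normalization (-0.25, 0.0630), without the variance trend (0.124) and in 11 of 12 fits that each left out a library. With miR-126 and miR-143 the intervals were -0.16 to 0.16 and -0.11 to 0.21.

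LOX (chromosome 5, 122063195 to 122078360, minus strand) starts cross-linking of collagen and elastin by oxidising lysine. It had 67.8, 56.5 and 80.2 TPM with miR-126, 46.3, 43.9 and 31.1 TPM with miR-143, 33.6, 40.3 and 19.6 TPM with miR-150, and 44.3, 70.0 and 62.1 TPM with scrambled RNA. The miR-150 libraries were below all controls and the other groups overlapped them. The log2 difference with miR-150 was -0.93 (interval -1.51 to -0.34, adjusted p = 0.0903), which passed after median centring (0.0425) and quantile normalization (0.0458). It also passed in limma with the replicate number as a block (adjusted p = 0.0492). The differences with miR-126 and miR-143, 0.22 (adjusted p = 0.732) and -0.53 (0.358), did not pass.

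LOX transcripts differed in pattern. LOX-201, with the longest annotated 3' UTR of the gene, had 26.9 ± 4.46 TPM with miR-126, 23.5 ± 1.54 with miR-143, 14.5 ± 4.24 with miR-150 and 28.9 ± 6.52 in controls. LOX-205 had 16.7 ± 5.07 TPM with miR-126 against 1.93 ± 2.97 TPM in controls, and LOX-206 had 11.1 ± 2.74 against 4.79 ± 2.09 TPM, each with all miR-126 libraries above all controls. LOX-203 had 4.56 ± 5.86 TPM with miR-126 against 16.1 ± 4.11 TPM in controls. LOX-202 overlapped the controls in all groups, at 8.73 ± 5.35 TPM with miR-126 and 6.62 ± 2.00 TPM in controls. These are values with no test, and LOX shares 138 exonic bases with SRFBP1 on the opposite strand.

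LOXL2 (chromosome 8, 23297189 to 23425328, minus strand) is a lysyl oxidase whose substrates include type IV collagen. It had 223, 152 and 223 TPM with miR-126, 189, 147 and 160.4 TPM with miR-143, 147, 123 and 98.2 TPM with miR-150, and 199, 177 and 215 TPM with scrambled RNA. The miR-150 libraries were below all controls, and replicate 3 was the lowest library of the miR-126, miR-143 and control groups. The log2 difference was -0.0025 with miR-126 (interval -0.40 to 0.40), -0.25 with miR-143 (adjusted p = 0.542) and -0.70 with miR-150 (interval -1.10 to -0.30, adjusted p = 0.0643), and none passed. Its main transcript, LOXL2-201, had 115 ± 22.1 TPM with miR-150 against 183 ± 17.0 TPM in controls. LOXL2 shares 120 exonic bases with ENTPD4 on the same strand.

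**Figure D3:**
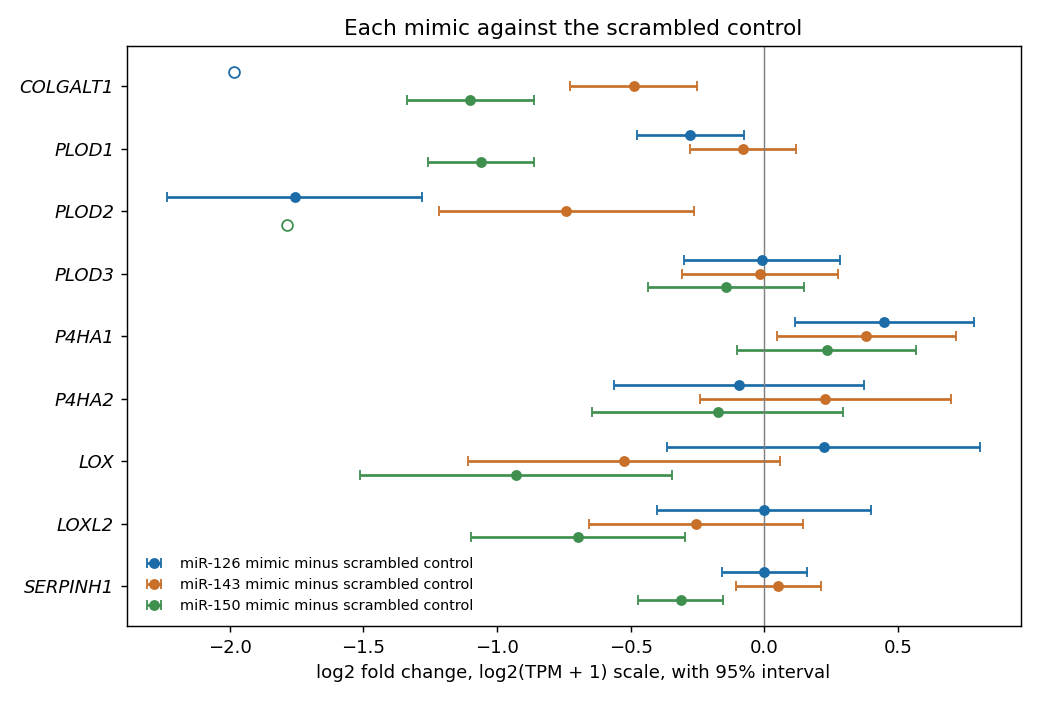
Log2 fold change of the 9 tested members for each mimic minus the scrambled control, on the log2(TPM + 1) scale, with 95% intervals from limma; open points are the 2 differences on which COLGALT1 and PLOD2 were chosen, drawn with no interval. PLOD2 is low with miR-126 (-1.76), PLOD1 is low with miR-150 (-1.06) and close to 0 with miR-143 (-0.08), and PLOD3 and P4HA2 intervals cross 0 with all mimics.

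Tests between mimics show where the responses differed. Between miR-126 and miR-143, 0 of 8 members passed higher and 1 passed lower (PLOD2), where 1.46% and 1.05% of all genes did. PLOD2 was 1.02 lower on the log2 scale with miR-126 (adjusted p = 0.0344), a call lost in 9 of 12 fits that each left out a library and without the filter on low values (0.0701). Between miR-126 and miR-150, 3 of 7 members passed higher (PLOD1, LOX and SERPINH1) and 0 passed lower, where 3.11% and 0.8% of all genes did. PLOD1 was higher with miR-126 by 0.78 (adjusted p = 0.00127), or by 0.52 after median centring (adjusted p = 0.0688). LOX was higher with miR-126 by 1.15 (adjusted p = 0.0387, lost in 7 of 12 fits that each left out a library and without the filter on low values at 0.0746). SERPINH1 was higher by 0.31 (adjusted p = 0.0387), a call lost in 11 of those 12 fits, after median centring (0.047, adjusted p = 0.906), after quantile normalization (0.0546) and without the variance trend (0.102). The all-gene median of this comparison was 0.22. Of the 8 tested fibroblast and pericyte markers, NOTCH3 passed higher in this comparison (6.88 ± 2.75 TPM with miR-126 against 2.15 ± 0.54 TPM with miR-150), and the median log2 difference of the 8 was 0.67. With the replicate block 5 of the 8 passed higher and 0 lower, where 15.8% and 3.06% of all genes did. The part of these markers in the LOX, PLOD1 and SERPINH1 differences was not tested.

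Between miR-143 and miR-150, 3 of 8 members passed higher (COLGALT1, PLOD1 and SERPINH1) and 0 passed lower, where 1.59% and 0.604% of all genes did. PLOD1 was 0.98 higher with miR-143 on the log2 scale (adjusted p = 0.00043), in all alternative settings, so the PLOD1 fall with miR-150 differed from the response to miR-143 by its own test. COLGALT1 was 0.61 higher with miR-143 (adjusted p = 0.0147; 0.53 and 0.0619 after median centring), a call lost in 2 of 12 fits that each left out a library. SERPINH1 was 0.37 higher (adjusted p = 0.0237), a call lost in 8 of those 12 fits, after median centring (0.29, adjusted p = 0.454), after quantile normalization (0.0764) and without the variance trend (0.106). PLOD2 was 1.04 higher with miR-143, with no test. For PLOD2 the miR-126 and miR-150 groups differed by 0.03 (SE 0.22). With the replicate number as a block, P4HA2 was lower with miR-126 than with miR-143 (-0.32, adjusted p = 0.0221) and higher with miR-143 than with miR-150 (0.40, adjusted p = 0.00942), and LOXL2 was higher with miR-126 than with miR-150 (0.69, adjusted p = 0.0124). Without the block these 3 did not pass, with adjusted p-values of 0.493, 0.444 and 0.0574.

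The rest of the collagen pathway was read from lists drawn up with earlier results of these data known. Of 31 other modification and processing genes, 27 were tested. In this list 0 passed higher and 1 lower with miR-126, 0 and 1 with miR-143, and 0 and 5 with miR-150. Of all genes 3.37% and 1.73%, 1.84% and 1.48%, and 1.08% and 2.23% passed higher and lower in these comparisons. The list had median log2 fold changes of -0.08, -0.16 and -0.39. At an unadjusted p under 0.05, 2 were higher and 7 lower with miR-126, 1 and 6 with miR-143, and 0 and 14 with miR-150, where 13.7% and 5.7%, 8.36% and 8.39%, and 5.55% and 11.8% of all genes were. With the replicate block 0 passed higher and 8 lower for miR-126, where 11.8% and 5.11% of all genes did. Without the 2 libraries low in long transcripts 2 and 6 did, where 8.89% and 4.56% of all genes did. In that setting 2 were lower with miR-143, where 2.3% of all genes were. LOXL1, an oxidase needed for elastic fibres, fell with all 3 mimics, to 10.2 ± 2.26 TPM with miR-126, 7.45 ± 0.51 with miR-143 and 8.34 ± 1.18 with miR-150, against 18.8 ± 2.42 TPM in controls. Its log2 differences were -0.84, -1.22 and -1.08 (adjusted p = 0.0242, 0.00515 and 0.00846), and they passed in all 7 alternative settings; the miR-126 call was lost in 4 and the miR-150 call in 2 of 12 fits that each left out a library.

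The other 4 genes of that list that fell with miR-150 were P3H3, P3H1, SPARC and KDELR2. P3H3 and P3H1, prolyl 3-hydroxylase family proteins, had 50.1 ± 2.93 and 83.3 ± 7.01 TPM with miR-150 against 79.8 ± 1.73 and 124 ± 11.7 TPM in controls (log2 differences -0.66 and -0.57, adjusted p = 0.00476 and 0.0257). SPARC, a collagen-binding matrix protein, had 2145 ± 293 TPM with miR-150 against 3411 ± 520 TPM in controls (-0.67, adjusted p = 0.0342). KDELR2, a receptor that returns proteins to the endoplasmic reticulum, had 212 ± 42.9 TPM with miR-150 against 323 ± 22.7 TPM in controls (-0.62, adjusted p = 0.0392). The P3H3, P3H1 and SPARC calls were lost after median centring (adjusted p = 0.137, 0.257 and 0.169), and the SPARC call also without the 2 libraries low in long transcripts (0.0884). The P3H1, SPARC and KDELR2 calls were lost in 4, 7 and 9 of 12 fits that each left out a library. The P3H1 call was also lost after quantile normalization (adjusted p = 0.0723). SPARC and KDELR2 did not pass without the filter on low values (0.0986 and 0.0734) or without the variance trend (0.0623 and 0.0681).

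Of 20 collagen and elastin chains, 18 were tested. With all 12 libraries COL13A1, a transmembrane collagen, was the only one past the threshold with miR-126 or miR-150. It was lower with both, where 1.73% and 2.23% of all genes passed lower. It had 33.6 ± 1.81 TPM with miR-126 and 14.5 ± 2.55 TPM with miR-150, against 51.1 ± 6.84 TPM in controls. The log2 differences were -0.58 (adjusted p = 0.0405, lost in 8 of 12 fits that each left out a library) and -1.75 (adjusted p = 0.000269). The miR-126 call was also lost without the filter on low values (adjusted p = 0.0524). With all 12 libraries no chain passed with miR-143, where 1 was higher and 2 lower at an unadjusted p under 0.05. At that cut 8.36% of all genes were higher and 8.39% lower. With the replicate block 5 chains passed lower for miR-126, where 5.11% of all genes did. Without the 2 libraries low in long transcripts 3 passed lower with miR-126, where 4.56% of all genes did. In that setting 1 passed higher and 1 lower with miR-143, where 2.89% and 2.3% of all genes did. With miR-150 2 passed lower, where 2.24% of all genes did. Of 19 tested genes of collagen export, SEC24D alone passed against the control with all 12 libraries. SEC24D, a coat subunit of vesicles that carry procollagen, had 30.1 ± 6.76 TPM with miR-150 against 67.3 ± 13.6 TPM in controls (-1.14, adjusted p = 0.0133). Of all genes 2.23% passed lower with miR-150. The SEC24D call was lost in 2 of 12 fits that each left out a library. For miR-126 the replicate block gave 2 export genes higher and 0 lower, where 11.8% and 5.11% of all genes passed. Without the 2 libraries low in long transcripts 1 export gene passed higher with miR-126 and 2 lower with miR-150. Of all genes 8.89% and 2.24% did.

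Because several lysyl and prolyl hydroxylases are known targets of hypoxia-inducible factors, 20 genes of that pathway were read as well. PFKFB4, a regulator of glycolysis, passed higher with miR-126 at 5.84 ± 1.19 TPM and with miR-150 at 6.74 ± 1.94 TPM, against 1.85 ± 0.49 TPM in controls (log2 differences 1.26 and 1.42, adjusted p = 0.0111 and 0.00725). These calls were lost in 2 (miR-126) and 1 (miR-150) of 12 fits that each left out a library. None of the other 19 passed with any mimic in limma with all 12 libraries and no block. Without the 2 libraries low in long transcripts 1 of the 20 passed higher and 1 lower with miR-126. With miR-143 1 passed higher and 2 lower, and with miR-150 1 and 1. Of all genes 8.89% and 4.56%, 2.89% and 2.3%, and 2.08% and 2.24% passed higher and lower in that setting. With the replicate block 3 of the 20 passed higher and 0 lower for miR-126, where 11.8% and 5.11% of all genes did. At an unadjusted p under 0.05, 1 of the 20 was higher and 1 lower with miR-126, 3 and 2 with miR-143, and 1 and 5 with miR-150. Of all genes 13.7% and 5.7%, 8.36% and 8.39%, and 5.55% and 11.8% were higher and lower at that cut. The list's medians were 0.03, -0.06 and -0.22 with miR-126, miR-143 and miR-150.

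**Figure D4:**
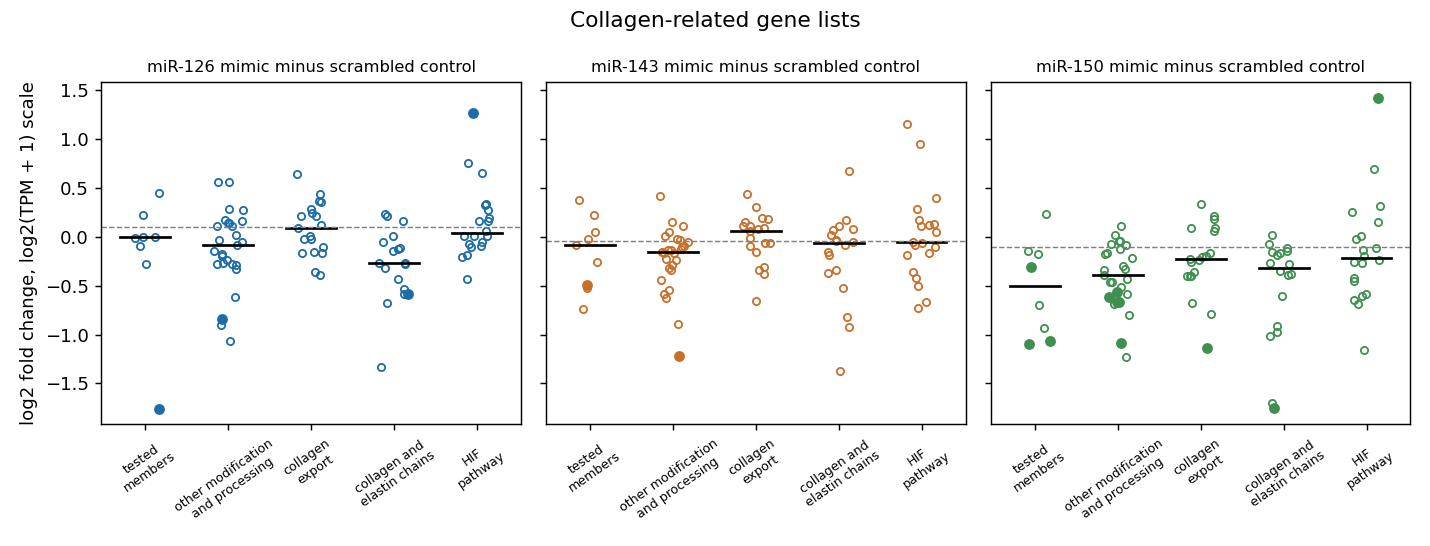
Log2 fold change against the scrambled control of each tested gene in 5 lists, for the 3 mimics; filled points passed an adjusted p of 0.05, the black line is the list's median and the dashed grey line the median of all tested genes. COLGALT1 is left out with miR-126 and PLOD2 with miR-150. With miR-150, 3 of 8 members and 5 of 27 other modification and processing genes passed lower, where 2.23% of all genes did.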

How the data were processed

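RNA of 12 HMEC-1 libraries was measured; the labels' protocol speaks of microRNA libraries, but the table lists annotated transcripts. The authors deposited TPM for 187626 transcripts, made with kallisto, per the submitters' processing notes, which also name FastQC, sleuth and GRCh38 (hg38). Versions, the annotation and any filter remain details not given in the sources used here. Every column summed to 1000000 TPM, so depth is unknown and the precision comes from the spread between libraries (Pearson r within groups 0.952 to 0.99, median residual SD 0.274 on the log2 scale). TPM are relative, so a change in abundant transcripts moves all others.

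TPM were summed per symbol, leaving out 171 transcripts without one. The 13750 genes reaching 1 TPM in 3 or more libraries were fitted as log2(TPM + 1) with the group as the only term, in limma 3.58.1 (R 4.3.3; moderated two-sided test with a mean-variance trend, all 12 libraries sharing the spread, Benjamini-Hochberg adjustment within each comparison over all genes, threshold 0.05). The script was tested on simulated data. The members and lists were chosen with earlier results of these data known. All members are named; of other lists, genes past the threshold against the control; of transcripts, those with at least 10% of a member's TPM, and COLGALT1-202, which falls below that. Gene positions, UTRs and exons came from GENCODE 29 (GRCh38).

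Replicate numbers recur in all groups. Residuals of same-numbered libraries correlated over 0.1 for every number in miR-126 against the control (0.29, 0.63 and 0.40 for numbers 2, 3 and 4) and in all 3 comparisons between mimics, so the numbers were taken as pairing these, and the fit with the replicate block is given where it changes a call. They did not for miR-143 (0.04, 0.65 and 0.17) or miR-150 (0.07, 0.60 and 0.07) against the control. The same numbers run through all groups, so these correlations do not settle whether the numbers pair libraries there. Alternatives were a pseudocount of 0.1 TPM, no filter, the block, median centring, quantile normalization, no variance trend, 12 fits leaving out a library each, and a fit without miR-143 replicate 4 and miR-150 replicate 4.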

Additional observations from a re-analysis of the deposited data

How the results depend on the processing

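Counts of members past the threshold, leaving out COLGALT1 with miR-126 and PLOD2 with miR-150, were 1 with miR-126, 1 with miR-143 and 3 with miR-150 against the control, and 1, 3 and 3 for miR-126 against miR-143, miR-126 against miR-150 and miR-143 against miR-150. With the replicate block they were 3, 2, 5, 2, 4 and 4 in the same order; for miR-143 and miR-150 against the control, where the numbers were not taken as pairing, the block added PLOD2 (miR-143, adjusted p = 0.034) and LOX and LOXL2 (miR-150, 0.0492 and 0.0156). In that order median centring gave 1, 2, 3, 1, 1 and 1, quantile normalization 1, 3, 3, 1, 2 and 2, no variance trend 1, 0, 2, 1, 2 and 2, no filter on low values 1, 1, 3, 0, 2 and 3, and the fit without the 2 libraries low in long transcripts 3, 3, 4, 1, 3 and 3. A pseudocount of 0.1 TPM changed no count. Leaving out 1 library gave 1 to 2, 0 to 2, 2 to 3, 0 to 1, 1 to 2 and 1 to 3. The share of all genes passing changed as well. For miR-126 against the control it was 3.37% higher and 1.73% lower with no block, and 11.8% and 5.11% with it. Without the 2 libraries it was 8.89% and 4.56%. For miR-126 against miR-150 it was 3.11% and 0.8% with no block, and 15.8% and 3.06% with it. Shares for the other alternative settings and comparisons are not given, so those counts have no share of all genes to be read against. The counts are thus not read as a result about the members, and the cause of these changes was not tested. COLGALT1 and PLOD1 with miR-150 and PLOD2 with miR-126 kept direction and call in all 19 alternatives.

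Sign changes touched log2 differences close to 0. PLOD2 in miR-126 against miR-150 was -0.24 after median centring, -0.12 after quantile normalization, -0.24 without the 2 libraries and -0.24 to 0.18 with 1 library left out. PLOD3 in miR-143 against the control was 0.034 (median centring), 0.048 (without the 2 libraries) and -0.088 to 0.061 (1 library left out), and in miR-126 against the control -0.068 to 0.071 (1 library left out). PLOD3 in miR-126 against miR-143 was -0.18, -0.024, -0.056 and -0.056 to 0.088 (median centring, quantile normalization, without the 2 libraries, 1 library left out), and in miR-126 against miR-150 -0.13 (median centring). P4HA1 in miR-126 against miR-143 was -0.12, -0.045, -0.023 and -0.023 to 0.13 under those 4 settings, -0.049 in miR-126 against miR-150 (median centring) and -0.023 to 0.24 in miR-143 against miR-150 (1 library left out). P4HA2 in miR-126 against miR-150 was -0.18, -0.056, -0.062 and -0.068 to 0.27 under the 4 settings, and -0.24 to 0.066 in miR-126 against the control (1 library left out). SERPINH1 after quantile normalization was 0.014 in miR-126 against the control, with -0.017 to 0.010 when 1 library was left out, and 0.0056 in miR-126 against miR-143. LOXL2 in miR-126 against the control was -0.095 to 0.18 with 1 library left out. TPM carry no read numbers, so low values such as those of COLGALT2 cannot be given a counting error.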
